A study of Mus musculus with 12 samples.

Results

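This report follows 9 imprinted growth genes, Meg3, H19, Igf2, Mest, Peg3, Plagl1, Cdkn1c, Dlk1 and Ndn, through the stromal vascular fraction (SVF) of mouse white fat. The genes were taken by symbol, with no threshold on a measured value, from a list drawn up with earlier results of these data known, and all 9 were found among the 31053 genes counted. SVF cells of epididymal fat (eWAT) and inguinal fat (iWAT) were profiled by droplet single-cell RNA sequencing in 12 libraries, 6 per depot and 2 for each of 3 groups. WT-Veh libraries came from lean C57BL/6 mice given vehicle, ob/ob-Veh libraries from obese Lep ob/Lep ob mice given vehicle, and ob/ob-Rosi libraries from Lep ob/Lep ob mice given rosiglitazone (Rosi, an agonist of PPARγ) at 30 mg/kg. All mice were 12 weeks old and were gavaged for 3 days. Lean mice given Rosi were not among these libraries, and both ob/ob groups lack functional leptin from birth. A unique molecular identifier (UMI) marks an RNA molecule, and levels below are in CPM, the UMIs of a gene in the summed cells of a class and library after scaling each sum to the same total.

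Imprinted genes are expressed from the copy inherited from either the mother or the father, which DNA methylation laid down at control regions in the germ line tells apart. Many of them act on growth before birth, and several are shut down in most tissues soon after it. Meg3, H19 and Cdkn1c are expressed from the maternal copy, and Igf2, Mest, Peg3, Plagl1, Dlk1 and Ndn from the paternal copy. In fat, Dlk1 (also called Pref-1) is known as an inhibitor of adipocyte differentiation, and Mest as a gene whose level follows the expansion of the tissue. The libraries hold no allele information, so the parent of origin of a UMI was not read.

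The members lie in clusters (GRCm38). Meg3, a long noncoding RNA, spans chr12:109541001-109571726 on the plus strand, 77.7 kb from Dlk1 (chr12:109452823-109463336, plus strand). H19, a noncoding RNA (chr7:142575529-142578143, minus strand), lies 72.6 kb from Igf2 (chr7:142650766-142666816, minus strand), and Cdkn1c follows on the same chromosome (chr7:143458339-143461050, minus strand). Peg3 (chr7:6703892-6730431, minus strand) and Ndn (chr7:62346569-62350262, plus strand) are in other regions of chromosome 7, Mest is at chr6:30723547-30748465 on the plus strand, and Plagl1 at chr10:13060504-13131694 on the plus strand. Igf2 shares its strand with an annotated overlapping gene, Gm49394, for which 0 UMIs were counted in all libraries. Reads that fit 2 genes are not counted by this kind of pipeline, so the Igf2 count may be too low.

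The start sites of imprinted genes are often rich in CG dinucleotides, the letters that carry the methylation mark. RefSeq (GRCm38.p6) held 300-base windows, from 250 bases before to 50 after a start site, for 7 of the 9 members. A window of each of Meg3, Mest and Peg3, whose levels changed most clearly below, is printed 5′ to 3′ on the strand of the gene with each CG in capitals.
Meg3, chr12:109540746-109541045, plus strand: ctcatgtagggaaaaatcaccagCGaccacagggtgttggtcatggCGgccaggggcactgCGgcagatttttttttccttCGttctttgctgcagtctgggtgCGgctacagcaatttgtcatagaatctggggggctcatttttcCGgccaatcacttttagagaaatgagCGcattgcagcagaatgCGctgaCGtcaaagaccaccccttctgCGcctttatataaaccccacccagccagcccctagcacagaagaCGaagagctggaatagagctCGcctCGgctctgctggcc
Mest, chr6:30737800-30738099, plus strand: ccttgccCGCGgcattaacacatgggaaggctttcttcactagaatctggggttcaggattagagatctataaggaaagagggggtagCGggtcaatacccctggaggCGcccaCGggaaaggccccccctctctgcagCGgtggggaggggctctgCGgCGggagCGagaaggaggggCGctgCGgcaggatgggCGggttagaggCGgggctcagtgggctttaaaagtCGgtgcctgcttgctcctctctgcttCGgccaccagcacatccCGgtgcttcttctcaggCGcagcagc
Peg3, chr7:6730370-6730669, minus strand: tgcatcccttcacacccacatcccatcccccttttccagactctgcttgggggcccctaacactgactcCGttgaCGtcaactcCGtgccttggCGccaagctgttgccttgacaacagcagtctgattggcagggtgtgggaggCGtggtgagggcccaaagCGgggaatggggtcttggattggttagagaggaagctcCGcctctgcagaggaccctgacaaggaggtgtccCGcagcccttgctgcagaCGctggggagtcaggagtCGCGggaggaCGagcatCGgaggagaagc
The letters CG, which read the same on both strands, occurred 13 times in the Meg3 window, 17 times in the Mest window and 13 times in the Peg3 window. The genes Meg3 and Mest have further start sites, whose windows differed. A second Meg3 window, at chr12:109545148-109545447, held 1, and Mest had a window with 8, at chr6:30733256-30733555, and another with 17 that overlaps the printed one. Over 32851 such windows the median was 7, and 37.9% held at least 13, 31.4% at least 17, 48.6% at least 8 and 94.6% at least 1. Plagl1 had the most among the members, with 26 in its window, a number reached by 16.9% of windows.

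Several members are also hosts of microRNAs, which poly(A)-primed libraries do not read. Their mature sequences (RefSeq, GRCm38.p6) are shown for the noncoding hosts Meg3 and H19 and for Mest, with the seed, bases 2 to 8, in capitals.
miR-1906 in Meg3: uGCAGCAGccugaggcagggcu
miR-770-5p in Meg3: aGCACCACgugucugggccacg
miR-770-3p in Meg3: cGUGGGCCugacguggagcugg
miR-675-5p in H19: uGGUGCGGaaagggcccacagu
miR-675-3p in H19: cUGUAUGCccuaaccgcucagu
miR-335-5p in Mest: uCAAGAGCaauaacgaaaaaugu
miR-335-3p in Mest: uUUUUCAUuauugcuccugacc
No seed is shared between these sequences. All values below are for the host transcripts.

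The deposited libraries held 20132553 to 92475986 UMIs, and the filters kept 6472 to 17500 cells per library with medians of 1132 to 4961 UMIs. Classes of cells were named from marker genes and carry "-like" because only RNA was read. Libraries of a depot shared 20 to 72 cell barcodes per pair, and the most shared by any pair across depots was 338, or 3.29%, in ob/ob-Rosi eWAT 2 and WT-Veh iWAT 2, of which 99 were kept as cells in both. Lep, mutated in ob/ob mice in a way that leaves its transcript, was set against the adipocyte transcript Adipoq as a check of the labels. There were 1407 to 3901 Lep UMIs per 1000 Adipoq UMIs in the ob/ob-Rosi libraries, 201 to 425 in WT-Veh and 39.5 to 364 in ob/ob-Veh. These ratios rest on few molecules, with 4 to 43 Lep and 11 to 265 Adipoq UMIs in the ob/ob-Veh libraries and 25 Adipoq UMIs in ob/ob-Rosi eWAT 1. Untreated ob/ob fat is known for a high Lep level, so the ob/ob-Veh libraries go against their label in this respect, and every direction below is that of the libraries so labelled. WT-Veh iWAT 1 stood apart from the other libraries, with 10148 of its 17063 cells in no named class (median 1023 UMIs), 24.5% marked by Scrublet as doublets against at most 5.18% elsewhere, and 135 progenitor-like cells against 1976 in WT-Veh iWAT 2. Progenitor-like and preadipocyte-like cells of ob/ob-Veh libraries formed clusters of their own in both depots. In eWAT, for example, 678 of 689 and 646 of 659 preadipocyte-like cells of the ob/ob-Veh libraries were in stromal cluster 5, in which no other library had 20 cells.

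Comparisons between groups used sums of UMIs per library and class and edgeR's quasi-likelihood test over all genes of the class. The ob/ob effect is the change from WT-Veh to ob/ob-Veh and the Rosi effect the change from ob/ob-Veh to ob/ob-Rosi, so both share the ob/ob-Veh libraries. A change of at least 1.1-fold was called where its p, adjusted over all genes of the class by Benjamini-Hochberg, did not exceed 0.05. Groups are 2 mice each, with which an exact permutation test cannot reach 0.05, so every p rests on the variance model. All groups of a fit share its estimate of the spread, so a library also enters the p of comparisons it is not part of. Shares over all pairs are given below for the calls of this edgeR test. Counts of unadjusted p under 0.05, of DESeq2 calls and of calls under other settings have no such share. By themselves those counts say nothing about the members as a set.

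Among the members Meg3 had by far the most UMIs, 169933 in the cells kept, or 336 CPM. Cdkn1c had 34315, Ndn 24026, Peg3 8843, Plagl1 3730 and Mest 3141. H19 had 441, Dlk1 97 and Igf2 13, so these 3 genes were barely detectable in adult SVF at this depth.

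The members differed in the classes that held them. Meg3 and Ndn were high in every stromal class and low in endothelium and immune cells. In eWAT, Meg3 ranged from 275 to 2283 CPM over the progenitor-like, preadipocyte-like and Fmo2 stromal-like sums, from 447 to 972 CPM in mesothelial-like cells, from 4.28 to 17.9 CPM in blood EC-like cells and from 3.83 to 15.7 CPM in macrophages. T or NK-like cells, which should lack it, held 24.5 to 61.1 CPM in eWAT, above the endothelial range. The ranges of stromal and endothelial sums did not overlap in any library. Classes were formed from the same cells, so these levels are a description without a test.

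Cdkn1c, a cyclin-dependent kinase inhibitor, was shared between stroma and endothelium, with 59.9 to 248 CPM in eWAT blood EC-like cells and 53.4 to 258 CPM over the eWAT progenitor-like, preadipocyte-like and Fmo2 stromal-like sums. Peg3, a zinc finger protein, stood at 11.04 to 29.5 CPM in the progenitor-like sums of both depots. Preadipocyte-like sums held 28.7 to 178 CPM and Fmo2 stromal-like sums 6.88 to 166 CPM, so the ranges overlapped. Plagl1, another zinc finger transcription factor, stood highest in iWAT progenitor-like cells (21.4 to 101 CPM) and in eWAT mesothelial-like cells (16.9 to 31.3 CPM). Mest, which encodes a protein of the alpha/beta hydrolase family, was also found in endothelium, with 10.2 to 71.7 CPM in eWAT and 12.8 to 38.9 CPM in iWAT blood EC-like cells.

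**Figure D1:**
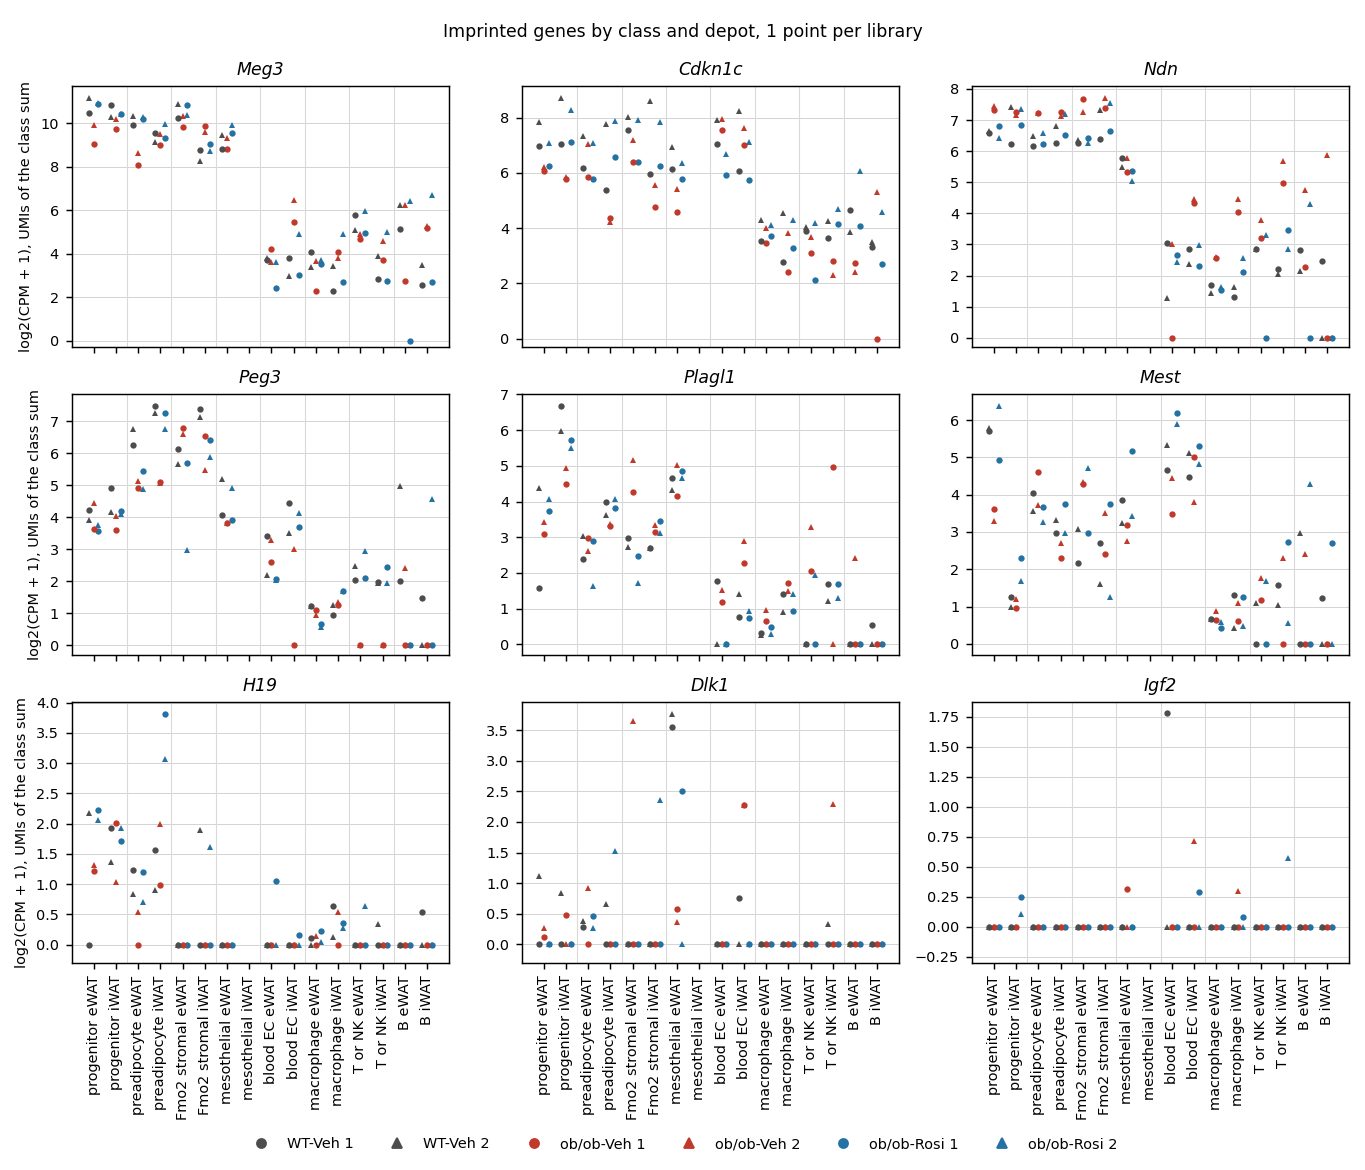
Level of each member on a log2(CPM + 1) scale (vertical) in each class and depot (horizontal), with 1 point per library, colour for the group and shape for the replicate number. Meg3 and Ndn fall from stromal to endothelial and immune classes, Mest stays up in blood EC-like cells, and Igf2 is at or near 0 in every class.

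Over 57 class sums of stromal and endothelial cells and 13056 genes, the genes whose log2 level followed Meg3 most closely were Loxl1 (Pearson r = 0.94), Mmp23 (0.94) and Sdc2 (0.93). Among the members the closest to Meg3 was Ndn (0.84), followed by Plagl1 (0.75). The genes closest to Mest were Actb (0.68), Cd320 (0.65) and Fxyd5 (0.65), and the value between Mest and Ndn was -0.46. These sums share libraries, depth and cell class, so the correlations describe how levels lay across classes. Igf2 had no sum with enough UMIs for such a comparison.

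In eWAT, 6 of the 25 tested pairs of member and class were called for the ob/ob effect, beside 4.05% of all pairs of gene and class. All 6 were lower in ob/ob-Veh, a direction called in 2.52% of all pairs: Meg3 in progenitor-like and preadipocyte-like cells, Mest in progenitor-like cells, Peg3 in preadipocyte-like cells and Cdkn1c in progenitor-like and mesothelial-like cells. For the Rosi effect 5 of 25 were called, beside 3.62% of all pairs, namely Meg3 and Mest higher in progenitor-like cells, Meg3 higher in preadipocyte-like cells, Mest higher in blood EC-like cells and Cdkn1c lower there. DESeq2 called 6 and 5. When ob/ob-Rosi was set against WT-Veh, 0 of 25 pairs were called by edgeR, beside 0.157% of all pairs, 5 had an unadjusted p under 0.05 and DESeq2 called 1. Dlk1, Igf2 and H19 did not pass the filter on low counts in any eWAT class, so 6 members were tested.

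Meg3, the maternally expressed long noncoding RNA, showed the clearest change of the members in eWAT preadipocyte-like cells, the stromal class closer to adipocytes. Its level was 962 and 1306 CPM in the WT-Veh libraries, 275 and 396 CPM in ob/ob-Veh and 1170.4 and 1246 CPM in ob/ob-Rosi. The ob/ob-Veh libraries lay below all others, and the ranges of WT-Veh and ob/ob-Rosi overlapped. Meg3 fell from WT-Veh to ob/ob-Veh by 1.90 on the log2 scale (SE 0.25, adjusted p = 0.00109, edgeR), a 3.74-fold lower level. After Rosi it rose by 1.99 (SE 0.25, adjusted p = 0.000911, edgeR), or 3.98-fold higher, and ob/ob-Rosi differed from WT-Veh by 0.09 (SE 0.24). Both calls held under each other setting tried and with any library of the depot left out.

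In eWAT progenitor-like cells, the Dpp4 and Pi16 expressing class thought to lie upstream, Meg3 was at 1449.8 and 2283 CPM in WT-Veh, 525 and 972 CPM in ob/ob-Veh and 1905 and 1986 CPM in ob/ob-Rosi. Again the ob/ob-Veh pair was lowest and did not overlap the other groups. Genes induced by tissue digestion, such as Fos and Jun, summed to 12888 and 10946 CPM in the ob/ob-Veh sums of this class against 2874 to 5996 CPM in the other 4 libraries, and macrophage markers to 254 and 500.1 CPM against 1493 to 1832 CPM. These values move with the Meg3 changes here and with those of Mest and Cdkn1c below, and their part was not tested. Log2 changes were -1.34 (SE 0.27, adjusted p = 0.0125) for the ob/ob effect and 1.41 (SE 0.27, adjusted p = 0.011, edgeR) for the Rosi effect. These calls were less stable. That of ob/ob was lost without WT-Veh eWAT 2 (-1.05, adjusted p = 0.155) or ob/ob-Veh eWAT 1 (-1.03, adjusted p = 0.0752), and that of Rosi without ob/ob-Veh eWAT 1 (adjusted p = 0.0585) or either ob/ob-Rosi library (adjusted p = 0.0565 and 0.0592).

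In the other eWAT classes Meg3 was not called in these sums. Fmo2 stromal-like cells held 1203 and 1914 CPM in WT-Veh, 927 and 1301 CPM in ob/ob-Veh and 1860.0 and 1361 CPM in ob/ob-Rosi, with WT-Veh and ob/ob-Veh overlapping. With cells assigned to classes singly, Meg3 in this class was called lower in ob/ob-Veh (-1.36, adjusted p = 0.0169) and higher after Rosi (1.61, adjusted p = 0.00575, edgeR). Mesothelial-like cells held 447 and 709.5, 459 and 648, and 759 and 972 CPM in the same order of groups. Here the ob/ob-Rosi pair stood highest, with a Rosi effect of 0.76 (SE 0.26, adjusted p = 0.155, edgeR).

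Meg3 is kept largely in the nucleus, as is Malat1. In eWAT progenitor-like and preadipocyte-like cells the level of Meg3 was lower in the deepest cells of a library than in its shallowest. Malat1 showed the same in the progenitor-like cells and in the WT-Veh and ob/ob-Rosi preadipocyte-like cells, but in ob/ob-Veh preadipocyte-like cells it was higher in deeper cells, at 11661 and 14467 CPM in the bin of fewest UMIs and 17523 and 26505 CPM in that of most. Meg3 in iWAT progenitor-like cells of ob/ob-Rosi 2 also stood higher in deeper cells, at 1317 against 1497 CPM. The depth of cells moved with the groups. In eWAT preadipocyte-like cells the median was 1268 and 3826 UMIs per cell in WT-Veh, 6997 and 6475 in ob/ob-Veh and 2206 and 4527 in ob/ob-Rosi. Malat1 was also lower in ob/ob-Veh than in WT-Veh, by -1.23 in preadipocyte-like cells (adjusted p = 0.0268, edgeR) and -1.22 in progenitor-like cells (adjusted p = 0.0084), whereas its Rosi effects of 0.48 (adjusted p = 0.361) and 0.76 (adjusted p = 0.116) were not called.

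Cells were therefore also compared within a window of 2000 to 6000 UMIs. There, eWAT preadipocyte-like cells held 624 and 1627 CPM of Meg3 in WT-Veh, 382 and 432 CPM in ob/ob-Veh and 1186 and 1140.3 CPM in ob/ob-Rosi. The ob/ob-Veh pair was still lowest, and both effects kept their call, at -1.58 (adjusted p = 0.0345) and 1.64 (adjusted p = 0.0308, edgeR). In progenitor-like cells the window gave 1073 and 2772, 848 and 1457, and 2204 and 2419 CPM. WT-Veh and ob/ob-Veh then overlapped, and neither effect was called, at -0.79 (adjusted p = 0.267) and 1.05 (adjusted p = 0.221). Malat1 in the window changed by -1.20 (adjusted p = 0.115) and 0.72 (adjusted p = 0.435, edgeR) in preadipocyte-like cells, beside -1.23 and 0.48 over all depths. In progenitor-like cells its changes were -0.64 (adjusted p = 0.278) and 0.46 (adjusted p = 0.595, edgeR). None of these was called in the window. What remains of the depth difference inside the window, and the part of a change that Meg3 shares with Malat1, was not tested.

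**Figure D2:**
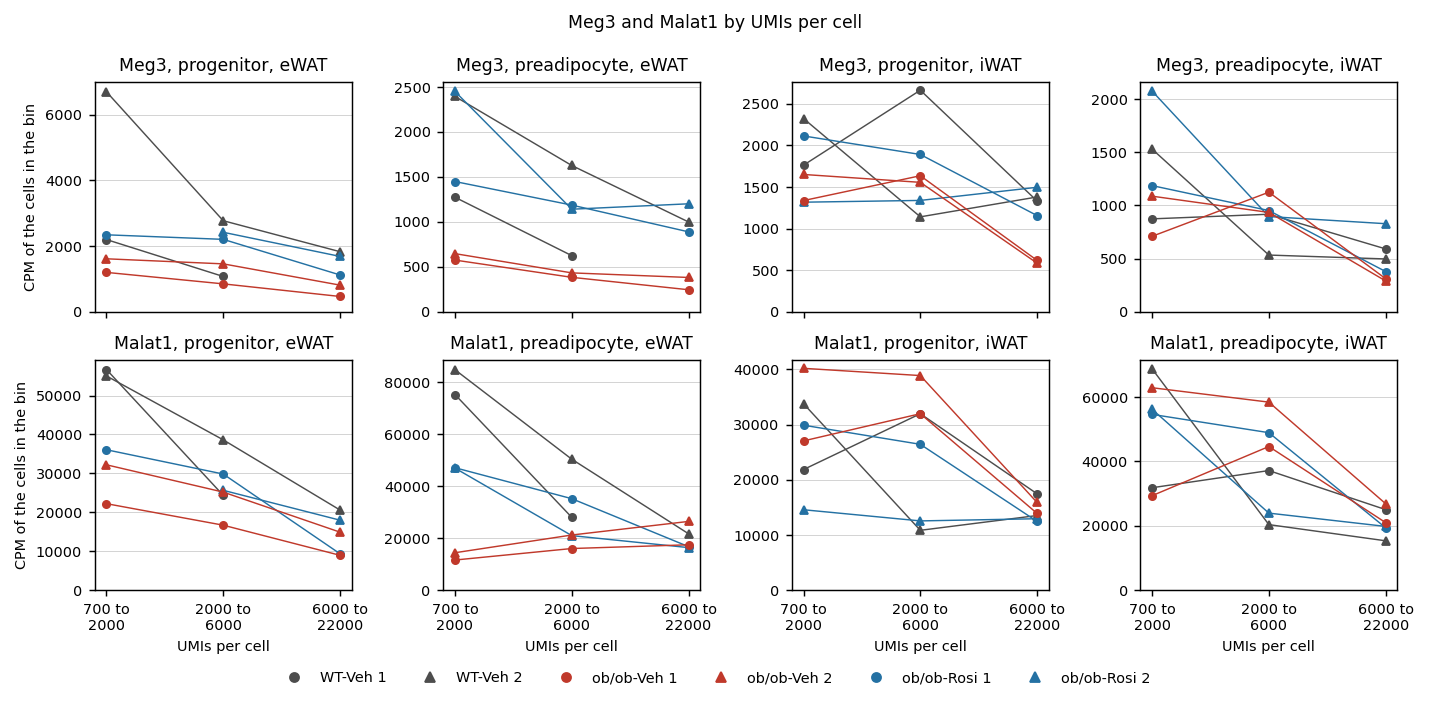
Meg3 (top) and Malat1 (bottom) in CPM of the cells of a bin (vertical) against UMIs per cell in 3 bins (horizontal), for progenitor-like and preadipocyte-like cells of each depot, with a line per library. In eWAT preadipocyte-like cells both ob/ob-Veh lines of Meg3 lie below all others in every bin, for example at 382 and 432 CPM against 624 to 1627 CPM between 2000 and 6000 UMIs.

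The share of cells with a Meg3 UMI showed the same order once depth was equal. With every cell thinned to 700 UMIs, 41.2% and 47.2% of eWAT preadipocyte-like cells held Meg3 in WT-Veh, 16.7% and 19.9% in ob/ob-Veh and 47.5% and 46.2% in ob/ob-Rosi. Without thinning the shares were 56.8% and 80.5%, 59.5% and 60.1%, and 74.6% and 78.8%, and WT-Veh and ob/ob-Veh overlapped. In thinned T or NK-like cells, which set the background, the share was 0.504% to 2.5% in eWAT.

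The class held different clusters in the different groups, and the levels followed them. In eWAT preadipocyte-like cells, cluster 5, formed by ob/ob-Veh cells, held 275 and 394 CPM of Meg3. Cluster 1, which the other groups shared, held 530.4 and 814 CPM in WT-Veh and 753 and 974 CPM in ob/ob-Rosi, and cluster 0 held 1529 and 3158 CPM in WT-Veh. Cluster 14, led by the oxidative stress genes Nqo1, Slc7a11 and Hmox1, was lower still, with 82.7 and 120.1 CPM in WT-Veh. Meg3 thus varied among clusters of a group more widely than between groups, and the part of the cluster split in the group effect was not tested. Many stromal cells of ob/ob-Veh were in clusters left unnamed. Clusters 2 and 3 held 1082 and 631 of the 4073 adipocyte progenitor (APC)-like cells, named and unnamed, of ob/ob-Veh eWAT 1 and 794 and 787 of the 3006 of ob/ob-Veh eWAT 2, with at most 6 cells of any other library in either. Meg3 was at 304 and 374 CPM in cluster 2 and at 887 and 1368 CPM in cluster 3. Summed over all APC-like cells, Meg3 was at 1058 and 1462 CPM in WT-Veh, 437 and 675 CPM in ob/ob-Veh and 1321 and 1297 CPM in ob/ob-Rosi, with effects of -1.25 (SE 0.27, adjusted p = 0.0201) and 1.30 (SE 0.27, adjusted p = 0.0153, edgeR). Assigned singly by their markers, 20.2% and 15.02% of preadipocyte-like cells got that name again in ob/ob-Veh and 31.2% to 38.1% in the other libraries. Macrophage markers also moved with the groups in these cells, at 242 and 446 CPM in ob/ob-Veh against 1452 to 2086 CPM in the other 4 libraries, as did the digestion genes, at 2587 and 3260.4 CPM against 4692 to 7473 CPM. Their part in the Meg3 and Peg3 results of this class was not tested.

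Mest fell in eWAT progenitor-like cells of ob/ob-Veh and rose after Rosi. It stood at 51.2 and 54.8 CPM in WT-Veh, 11.2 and 8.89 CPM in ob/ob-Veh and 29.4 and 82.2 CPM in ob/ob-Rosi. The ob/ob-Veh pair was the lowest, and the ob/ob-Rosi libraries lay on either side of WT-Veh. Mest was 5.14-fold lower in ob/ob-Veh than in WT-Veh (log2 change -2.36, SE 0.37, adjusted p = 0.00243, edgeR) and 4.71-fold higher in ob/ob-Rosi than in ob/ob-Veh (2.23, SE 0.40, adjusted p = 0.00706). The sums rest on few molecules, with 26 and 47 UMIs in WT-Veh, 136 and 42 in ob/ob-Veh and 24 and 26 in ob/ob-Rosi. Both calls were lost with cells thinned to 700 UMIs (adjusted p = 0.109 and 0.297) and with cells assigned to classes singly (0.073 and 0.139), and the Rosi effect without ob/ob-Rosi eWAT 2 (1.56, adjusted p = 0.099).

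In the rest of the eWAT stroma Mest passed the filter in preadipocyte-like cells and was not called. It was there at 15.4 and 10.9 CPM in WT-Veh, 23.2 and 12.3 CPM in ob/ob-Veh and 11.8 and 8.61 CPM in ob/ob-Rosi. WT-Veh overlapped both ob/ob groups, which did not overlap each other. Mesothelial-like sums did not pass, and without the filter the Rosi effect was called there (1.74, adjusted p = 0.0278, edgeR). When all APC-like cells were summed as 1 class, Mest differed by -0.25 for ob/ob (adjusted p = 0.672) and by -0.27 for Rosi (adjusted p = 0.642, edgeR), the latter opposite in sign to that in progenitor-like cells.

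In the eWAT blood EC-like sums, over cells of all depths, Mest was highest after Rosi, with 24.4 and 39.4 CPM in WT-Veh, 10.2 and 20.6 CPM in ob/ob-Veh and 71.7 and 59.0 CPM in ob/ob-Rosi. No pair of groups overlapped in these sums, and the order was ob/ob-Veh, WT-Veh, ob/ob-Rosi. In cells of 2000 to 6000 UMIs, however, ob/ob-Rosi (91.7 and 25.9 CPM) overlapped WT-Veh (20.4 and 43.9 CPM). Both groups lay above ob/ob-Veh there (9.76 and 10.8 CPM). The order of ob/ob-Rosi and WT-Veh thus depended on the depth of the cells. The Rosi effect was 2.00 (SE 0.35, adjusted p = 0.00563, edgeR), a 4.01-fold rise, and the ob/ob effect of -1.09 (SE 0.38, adjusted p = 0.14) was not called. The call was lost with cells assigned singly (adjusted p = 0.083) and without ob/ob-Veh eWAT 1 (adjusted p = 0.0585). That library gave 8 Mest UMIs from 173 cells. RNA of adipocytes also moved with the groups in these endothelial sums, at 1263 and 687 CPM in ob/ob-Veh against 21.6 to 38.7 CPM in the other 4 libraries, and macrophage markers stood at 412 and 620 CPM against 1564 to 2153 CPM. Capillary clusters 1 and 7 held 107 and 55 of the 173 cells of ob/ob-Veh eWAT 1 and 276 and 126 of the 424 cells of ob/ob-Veh eWAT 2, while the other groups lay mostly in clusters 0, 3, 4, 8 and 9. The part of these differences in the Mest result was not tested.

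Peg3 fell in preadipocyte-like cells of ob/ob-Veh in both depots. In eWAT it was at 76.6 and 108 CPM in WT-Veh, 29.4 and 34.0 CPM in ob/ob-Veh and 43.1 and 28.7 CPM in ob/ob-Rosi. WT-Veh lay above both ob/ob groups, which overlapped each other. Its fall in ob/ob-Veh was -1.68 (SE 0.28, adjusted p = 0.00481, edgeR), and it lost its call without ob/ob-Veh eWAT 1 (adjusted p = 0.069) or 2 (adjusted p = 0.0549). The Rosi effect was 0.31 (adjusted p = 0.562), and ob/ob-Rosi stayed below WT-Veh by -1.37 (unadjusted p = 0.000453, adjusted p = 1 in edgeR, 0.0306 in DESeq2 and 0.00413 in edgeR without the filter on low counts). In eWAT, Meg3 thus returned to the WT-Veh range in the ob/ob-Rosi libraries and Peg3 did not, a contrast that was not tested itself.

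In iWAT preadipocyte-like cells Peg3 was at 178 and 153 CPM in WT-Veh, 33.5 and 32.4 CPM in ob/ob-Veh and 151 and 107 CPM in ob/ob-Rosi. The ob/ob-Veh pair was far below the rest, and the ob/ob-Rosi libraries both lay below WT-Veh. Peg3 was 4.94-fold lower in ob/ob-Veh than in WT-Veh (-2.30, SE 0.33, adjusted p = 0.0144, edgeR) and 3.87-fold higher in ob/ob-Rosi than in ob/ob-Veh (1.95, SE 0.32, adjusted p = 0.0485). The first of these calls was lost without ob/ob-Veh iWAT 1 (adjusted p = 0.396) or 2 (0.285) and in the depth window (0.285). The second was lost without any of the 4 ob/ob libraries of the depot (adjusted p = 0.0588 to 0.573), with thinned cells (0.0571) and in the window (0.223). ob/ob-Veh iWAT 1 held 193 of these cells and 34 Peg3 UMIs. Digestion genes were at 15150.2 and 14092 CPM in ob/ob-Veh against 10004 to 12136 CPM in the other libraries of this class, and their part was not tested.

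In Fmo2 stromal-like cells the order depended on how cells were assigned. Peg3 there was at 69.1 and 50.1 CPM in WT-Veh, 110.2 and 96.0 CPM in ob/ob-Veh and 50.6 and 6.88 CPM in ob/ob-Rosi in eWAT, with ob/ob-Veh highest. These ob/ob-Veh sums held only 29 and 56 cells, and 6.88 CPM is the level of 3 UMIs in its sum. In iWAT it was at 166 and 141 CPM, 91.9 and 43.8 CPM, and 84.7 and 58.1 CPM, with WT-Veh highest. None of these differences was called in these sums. With each cell assigned to a class singly, however, Peg3 in eWAT was lower in ob/ob-Veh (-1.16, adjusted p = 0.0304, edgeR), opposite to the 0.71 of the sums above. In iWAT the ob/ob effect of -1.15 (adjusted p = 0.193) was called with cells assigned singly (-2.75, adjusted p = 0.0281) and thinned (-2.24, adjusted p = 0.049).

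**Figure D3:**
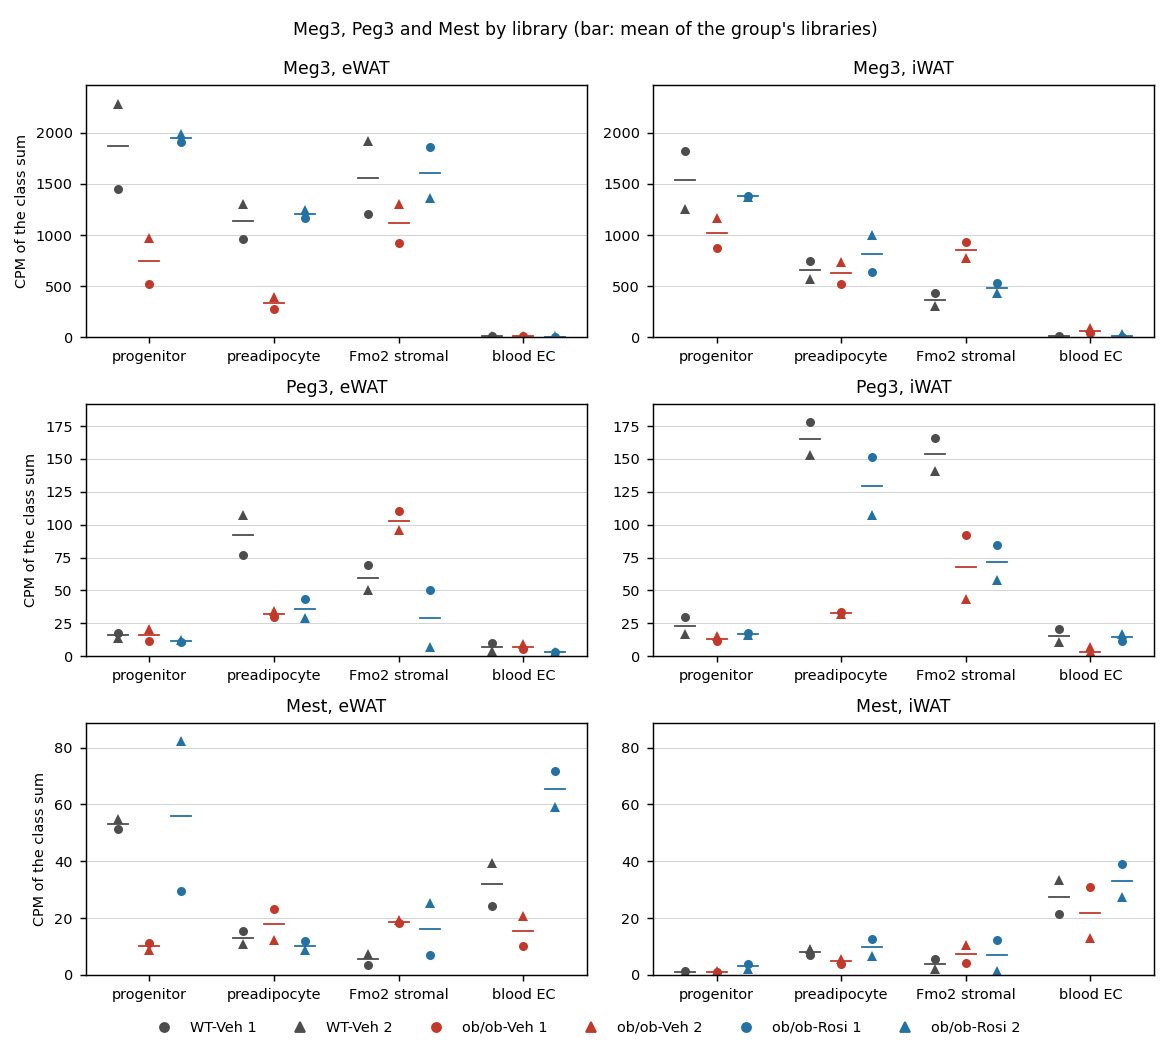
Meg3, Peg3 and Mest in CPM of the class sum (vertical) in 4 classes (horizontal) of eWAT and iWAT, with 1 point per library and a bar at the mean of each group's 2 libraries. The ob/ob-Veh points of Meg3 in eWAT preadipocyte-like cells (275 and 396 CPM) and of Peg3 in preadipocyte-like cells of both depots (29.4 to 34.0 CPM) lie below the WT-Veh points.

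Cdkn1c, which slows the cell cycle, was lower in ob/ob-Veh in eWAT progenitor-like and mesothelial-like cells. In progenitor-like cells it was at 124 and 228 CPM in WT-Veh, 66.9 and 74.0 CPM in ob/ob-Veh and 74.8 and 136 CPM in ob/ob-Rosi. WT-Veh and ob/ob-Rosi overlapped, and ob/ob-Veh lay just under ob/ob-Rosi. Against WT-Veh the change was -1.34 (SE 0.30, adjusted p = 0.0216, edgeR) and was lost without WT-Veh eWAT 2 (adjusted p = 0.265) or ob/ob-Veh eWAT 1 (0.0726) and with cells assigned singly (0.0873).

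In eWAT mesothelial-like cells, which line the peritoneal surface of this depot, Cdkn1c was at 69.5 and 122 CPM in WT-Veh, 23.1 and 41.7 CPM in ob/ob-Veh and 53.7 and 80.2 CPM in ob/ob-Rosi. Cdkn1c fell there by 1.65 in ob/ob-Veh (SE 0.34, adjusted p = 0.0412), a call lost without ob/ob-Veh eWAT 1 (0.169), WT-Veh eWAT 1 (0.119) or WT-Veh eWAT 2 (0.326) and with scaling by library size alone (0.0533). Digestion genes were at 6166 and 1760.4 CPM in ob/ob-Veh against 593 to 1436 CPM in the other mesothelial-like sums, and macrophage markers at 330.0 and 489 CPM against 1278 to 1643 CPM, and their part was not tested. In blood EC-like cells the change was with Rosi, with 132 and 241, 185 and 248, and 59.9 and 103 CPM in the same order of groups. Both ob/ob-Rosi libraries were below all others, with a Rosi effect of -1.33 (SE 0.34, adjusted p = 0.0484, edgeR). This call was lost without ob/ob-Rosi eWAT 1 (0.076) or either ob/ob-Veh library (0.0669 and 0.222), with thinned cells (0.116), with cells assigned singly and in the depth window (0.0503). The adipocyte RNA, macrophage markers and clusters given for Mest differ between the same sums, and their part was not tested.

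In iWAT, Cdkn1c showed its lowest stromal values in ob/ob-Veh, and whether edgeR called the difference depended on the setting. Progenitor-like cells held 132 and 415 CPM in WT-Veh, 53.8 and 56.6 CPM in ob/ob-Veh and 138 and 308 CPM in ob/ob-Rosi. The WT-Veh and ob/ob-Rosi libraries were far apart from each other, and ob/ob-Veh lay below them all. These were differences of -2.47 against WT-Veh (SE 0.56, adjusted p = 0.0752 in edgeR and 7.11e-05 in DESeq2) and of 2.18 for ob/ob-Rosi against ob/ob-Veh (SE 0.55, adjusted p = 0.066 in edgeR and 0.000445 in DESeq2). Preadipocyte-like cells (40.5 and 216, 19.7 and 17.9, 94.3 and 236 CPM) and Fmo2 stromal-like cells (60.8 and 392.1, 26.0 and 46.1, 74.7 and 226 CPM) had the same order, and neither was called in these sums. With cells thinned to 700 UMIs edgeR called both effects in progenitor-like cells (-2.72, adjusted p = 0.0191, and 2.46, adjusted p = 0.0127). Without a filter on low counts it called both effects in all 3 of these classes, with adjusted p of 1e-07 or less for the ob/ob effect. Cdkn1c passed the filter in each of them, so its own counts were the same and only the other genes in the fit differed. The share of all genes called without the filter was not set beside this. Single settings also called the Rosi effect in progenitor-like cells assigned singly (2.10, adjusted p = 0.0492), the Rosi effect in Fmo2 stromal-like sums of at least 50 cells (2.24, adjusted p = 0.0154) and the ob/ob effect in Fmo2 stromal-like cells within the depth window (-3.50, adjusted p = 0.0399). In the progenitor-like sums ob/ob-Veh also had the most RNA of digestion genes (14272 and 13256 CPM against 8464 to 12025 CPM) and of macrophage markers (918 and 861 against 508 to 806 CPM). Its cells were the shallowest, with medians of 2895 and 2141 UMIs against 3835 to 5192, and had the highest median mitochondrial shares, 5.30% and 7.04% against 1.66% to 5.12%. The part of these differences was not tested.

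Cdkn1c was also higher in the second library of a group than in the first in 27 of 28 pairs of class sums over both depots, with a median ratio of 1.83. Meg3 was higher in the second in 18 of 28, with 13 of 16 in eWAT and 5 of 12 in iWAT. Class sums of the same 2 libraries are not independent of each other, and the pattern was not counted over all genes. The ratio for Cdkn1c was largest in iWAT WT-Veh, with a median of 4.96. The libraries of a group are mice without an order, and the labels do not say whether a number marks anything shared between groups.

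**Figure D4:**
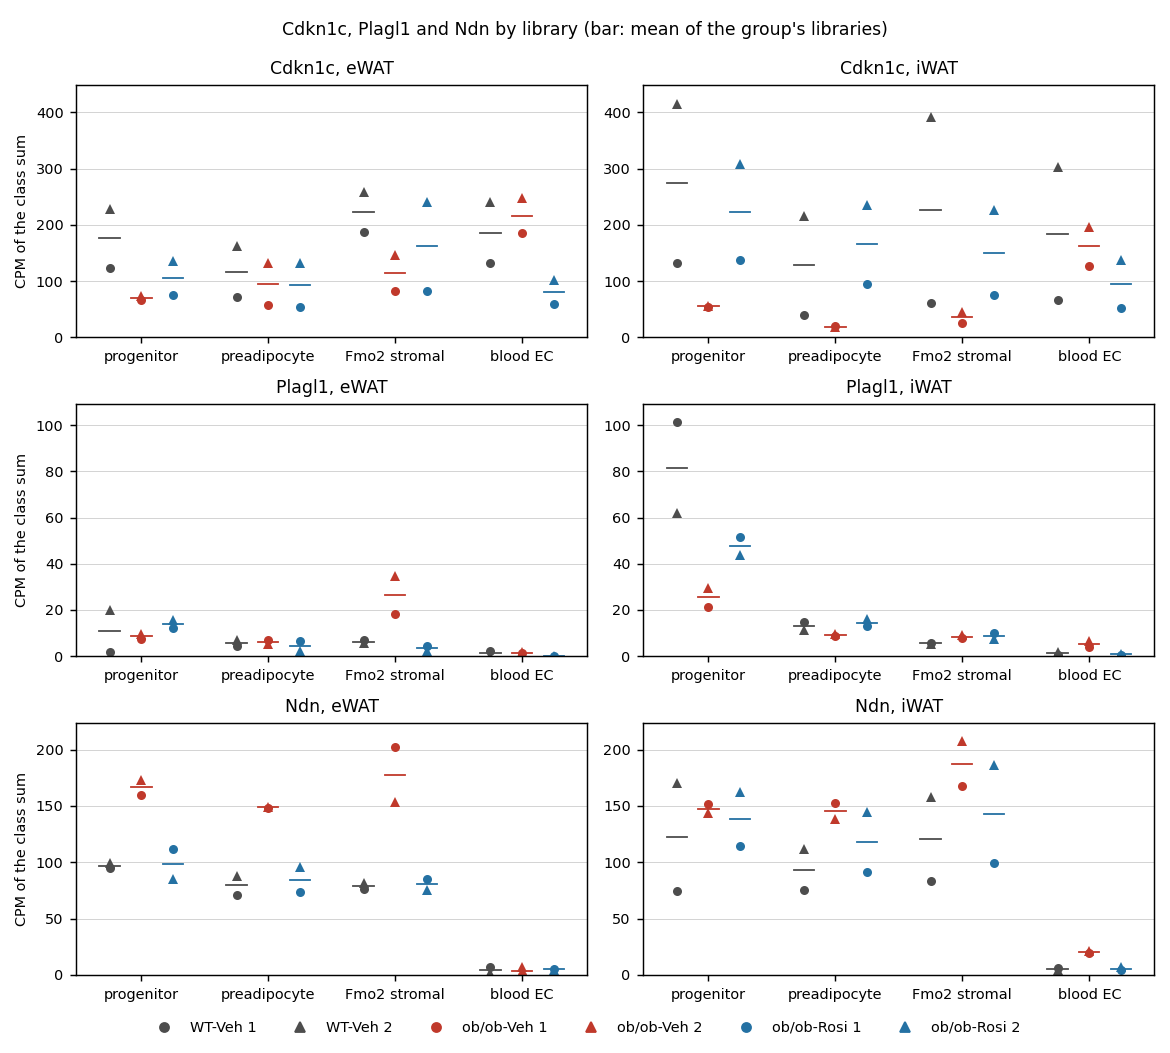
Cdkn1c, Plagl1 and Ndn in CPM of the class sum (vertical) in 4 classes (horizontal) of eWAT and iWAT, with 1 point per library and a bar at the mean of each group's 2 libraries. Cdkn1c triangles (the second library) stand above the circles in nearly every group, Plagl1 is high in iWAT progenitor-like cells (21.4 to 101 CPM), and Ndn is highest in ob/ob-Veh in the 3 eWAT stromal classes.

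Ndn, which encodes the growth suppressor necdin, had its highest eWAT values in ob/ob-Veh. Progenitor-like cells held 94.5 and 99.1 CPM in WT-Veh, 160.0 and 173 CPM in ob/ob-Veh and 112 and 85.4 CPM in ob/ob-Rosi. In preadipocyte-like cells the values were 71.3 and 87.8, 148 and 149, and 73.3 and 95.5 CPM. In both classes ob/ob-Veh was highest and did not overlap the other groups, but the ob/ob effects of 0.77 (SE 0.25, adjusted p = 0.124) and 0.76 (SE 0.25, adjusted p = 0.0917, edgeR) and the Rosi effects of -0.71 (adjusted p = 0.203) and -0.68 (adjusted p = 0.132) were not called.

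In iWAT, 3 of 25 pairs were called for the ob/ob effect, beside 2.1% of all pairs, namely Peg3 in preadipocyte-like cells (lower), Plagl1 in progenitor-like cells (lower) and Meg3 in blood EC-like cells (higher). For the Rosi effect 1 of 25 was called, Peg3 in preadipocyte-like cells (higher), beside 2.36% of all pairs. DESeq2 called 4 and 3, and 12 pairs had an unadjusted p under 0.05 in each comparison, counts without a share over all pairs beside them. For ob/ob-Rosi against WT-Veh, 0 of 25 pairs were called by either edgeR or DESeq2, beside 0.466% of all pairs in edgeR, and 3 had an unadjusted p under 0.05. H19 passed the filter in 2 iWAT classes, so 7 members were tested. Without WT-Veh iWAT 1, the library that stood apart, the 4 changes called here kept their direction. They were -2.24 and 2.02 for Peg3, -1.46 for Plagl1 and 3.05 for Meg3. No WT-Veh library is part of the Rosi effect, so WT-Veh iWAT 1 enters it only through what all groups of the fit share.

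Plagl1 in iWAT progenitor-like cells was at 101 and 62.1 CPM in WT-Veh, 21.4 and 29.7 CPM in ob/ob-Veh and 51.6 and 43.9 CPM in ob/ob-Rosi. The 3 groups did not overlap, and ob/ob-Rosi lay between the others. Plagl1 was 3.32-fold lower in ob/ob-Veh than in WT-Veh (-1.73, SE 0.29, adjusted p = 0.028, edgeR), and its Rosi effect of 1.06 (SE 0.28, adjusted p = 0.069) was not called, though it was by DESeq2 (adjusted p = 0.0384), with cells assigned singly (0.046) and without the filter on low counts (0.0144). The call of the ob/ob effect on Plagl1 was lost without ob/ob-Veh iWAT 1 or 2. It was also lost with thinned cells (adjusted p = 0.0592, edgeR) and in the depth window (0.133). The digestion genes, macrophage markers, depth and mitochondrial shares given for Cdkn1c set the ob/ob-Veh libraries apart in these same sums, and their part was not tested. In eWAT progenitor-like cells Plagl1 was at 1.97 and 19.8, 7.56 and 9.73, and 12.3 and 15.8 CPM, where the WT-Veh libraries spanned both other groups and no change was called.

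Meg3 in the iWAT stroma was not called by edgeR in these sums. Progenitor-like cells held 1822 and 1259 CPM in WT-Veh, 870.0 and 1164 CPM in ob/ob-Veh and 1382 and 1375 CPM in ob/ob-Rosi (ob/ob effect -0.69, adjusted p = 0.301, edgeR). Preadipocyte-like cells held 743 and 569, 518 and 734, and 637 and 999 CPM, with all groups overlapping. In Fmo2 stromal-like cells ob/ob-Veh was highest, at 934 and 772 CPM, against 431 and 305 CPM in WT-Veh and 533 and 429 CPM in ob/ob-Rosi (ob/ob effect 1.22, SE 0.39, adjusted p = 0.161, and 0.0422 with the replicate number as a block).

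In iWAT blood EC-like cells Meg3 was higher in ob/ob-Veh, with 13.1 and 6.75 CPM in WT-Veh, 42.6 and 87.9 CPM in ob/ob-Veh and 7.17 and 29.4 CPM in ob/ob-Rosi. The ob/ob-Veh libraries lay above the rest in these sums, but not at every depth. In cells of 700 to 2000 UMIs ob/ob-Veh held 16.3 and 5.18 CPM, below the 21.3 and 50.4 CPM of ob/ob-Rosi. WT-Veh held 0 and 2.89 CPM there. Between 2000 and 6000 UMIs ob/ob-Veh was highest, at 48.9 and 89.0 CPM. The ob/ob effect in the sums was 2.73 (SE 0.63, adjusted p = 0.0259, edgeR). The call was lost without ob/ob-Veh iWAT 1 (adjusted p = 0.103) or 2 (0.39), with thinned cells (0.137) and with cells assigned singly (0.195), and was kept in the depth window (3.13, adjusted p = 0.0113). The Rosi effect of -1.79 (SE 0.56, adjusted p = 0.0841) was not called, but was in the depth window (-2.08, adjusted p = 0.0263) and without the filter on low counts (-1.70, adjusted p = 0.000304, edgeR). Ndn in the same sums was at 6.21 and 4.19 CPM in WT-Veh, 19.4 and 21.2 CPM in ob/ob-Veh and 3.92 and 6.83 CPM in ob/ob-Rosi, with ob/ob-Veh above the rest on 5 and 33 UMIs. Its effects of 1.84 (adjusted p = 0.0606) and -1.76 (adjusted p = 0.0584) were called with scaling by library size alone (0.0356 and 0.0371) and without the filter (0.0229 and 0.021). Markers of APC-like cells, summed, moved the same way in these endothelial sums, at 387 and 219 CPM in WT-Veh, 2137 and 1584 CPM in ob/ob-Veh and 756 and 661 CPM in ob/ob-Rosi. In T or NK-like cells of iWAT, which should lack both, these markers stood at 579 and 296, 5296 and 4036, and 1966 and 959 CPM in the same order of groups, and Meg3 at 6.13 and 14.0, 12.1 and 23.4, and 5.61 and 30.9 CPM. The background of stromal RNA was thus also highest in ob/ob-Veh. Meg3 in T or NK-like cells overlapped between groups. Its 12.1 CPM in ob/ob-Veh iWAT 1 was under the level of 3 UMIs in that sum (18.2 CPM). The T or NK-like values of Meg3 thus rest on too few UMIs to set against the endothelial sums. The stromal gene Dcn rose by 2.98 in the blood EC-like sums of ob/ob-Veh (adjusted p = 0.000405, edgeR). Adipocyte RNA stood there at 283 and 248 CPM against 54.8 to 92.9 CPM in the other groups. Macrophage markers were at 1804 and 1040 CPM against 600 to 898 CPM. Median depth was 2004 and 2001 UMIs per cell against 2204 to 3802. The part of these differences in the Meg3 and Ndn values was not tested. Endothelial clusters 7 and 9 of WT-Veh iWAT 1, which were left unnamed and so outside this class, held 87.3 and 116 CPM of Meg3, as much as the ob/ob-Veh sums.

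The depots differed in 6 of 23 pairs tested over all 12 libraries, beside 7.83% of all pairs, with 4 higher and 2 lower in iWAT. Mest in progenitor-like cells was the clearest, with 8.89 to 82.2 CPM in eWAT and 0.937 to 3.96 CPM in iWAT. No iWAT library reached the lowest of eWAT, and the difference was -4.19 (SE 0.29, adjusted p = 1.14e-07, edgeR), or 18.3-fold. It was called under every alternative, at -4.39 to -3.71 in this class and at -1.85 (adjusted p = 0.000433) when all APC-like cells were summed. Plagl1 went the other way in progenitor-like cells, with 1.97 to 19.8 CPM in eWAT and 21.4 to 101 CPM in iWAT, a difference of 2.13 (SE 0.25, adjusted p = 2.81e-05).

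H19 in preadipocyte-like cells, also called, was high in iWAT only in ob/ob-Rosi and is described with its counts below. In preadipocyte-like cells Peg3 was higher in iWAT by 0.97 (SE 0.17, adjusted p = 0.00247) and Plagl1 by 1.24 (SE 0.28, adjusted p = 0.0129, lost without ob/ob-Veh iWAT 2 at 0.0621, in the depth window at 0.108 and with the replicate number as a block at 0.155). Meg3 in Fmo2 stromal-like cells was lower in iWAT by -1.38 (SE 0.22, adjusted p = 0.000485), with 305 to 934 CPM against 927 to 1914 CPM in eWAT. Assigned cell by cell, that difference was -0.19 (adjusted p = 0.644, edgeR). Depot also separates the form in which the matrices were deposited, so depot and file form cannot be told apart.

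No difference of an effect between depots was called. For the ob/ob effect edgeR called 0 of 23 pairs, beside 0.578% of all pairs, 6 had an unadjusted p under 0.05 and DESeq2 called 1. For the Rosi effect edgeR called 0 of 23, beside 0.359% of all pairs, 8 had an unadjusted p under 0.05 and DESeq2 called 2. The closest was Meg3 in preadipocyte-like cells, whose ob/ob effect was 1.82 higher in iWAT than in eWAT (SE 0.39, adjusted p = 0.054 in edgeR, 0.000737 in DESeq2, 0.0255 with thinned cells and 0.00231 without the filter on low counts). Its Rosi effect was -1.59 lower in iWAT (SE 0.39, adjusted p = 0.115 in edgeR and 0.00551 in DESeq2).

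**Figure D5:**
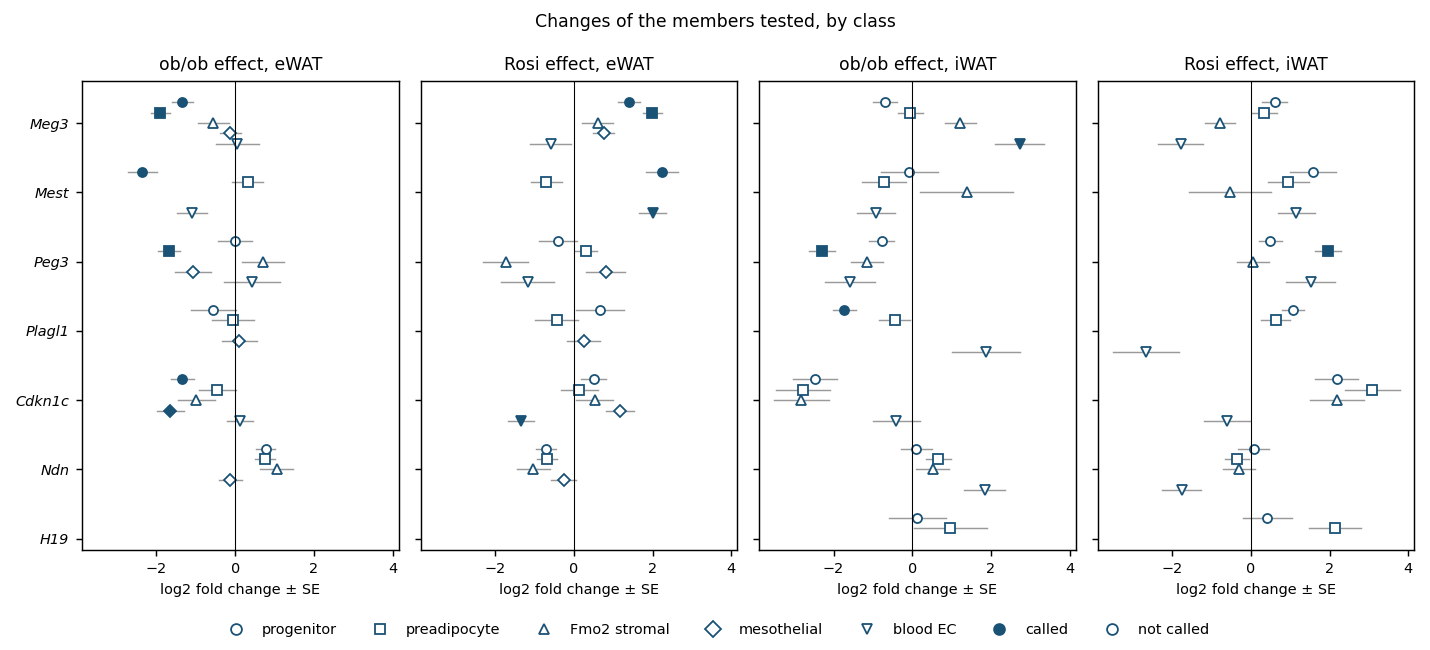
log2 fold change ± SE (horizontal) of each member tested (vertical) for the ob/ob and Rosi effects in eWAT and iWAT, with a symbol for the class and filled symbols for calls. In eWAT the filled symbols of the ob/ob effect all lie left of 0 and those of Meg3 and Mest for the Rosi effect lie right of it.

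H19, Dlk1 and Igf2 rested on few UMIs. H19 in iWAT preadipocyte-like cells was counted 2 and 3 times in WT-Veh, 1 and 7 times in ob/ob-Veh and 96 and 75 times in ob/ob-Rosi, that is, at 1.97 and 0.875, 0.985 and 2.99, and 13.1 and 7.38 CPM. Both ob/ob-Rosi libraries lay above the others, but neither the Rosi effect (2.14, SE 0.66, adjusted p = 0.163) nor the difference from WT-Veh (3.104, SE 0.72, adjusted p = 0.275, edgeR) was called, while without the filter on low counts both were (adjusted p = 0.019 and 0.00145). H19 was higher in iWAT than in eWAT in this class by 2.33 (SE 0.55, adjusted p = 0.0178), a call lost without ob/ob-Veh iWAT 2 (0.276), with cells assigned singly (0.576) and with the replicate number as a block.

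Dlk1 was counted in eWAT mesothelial-like cells of WT-Veh with 4 and 6 UMIs (10.7 and 12.6 CPM), against 2 and 1 UMIs in ob/ob-Veh (0.491 and 0.290 CPM) and 2 and 0 in ob/ob-Rosi. The ob/ob-Veh sums were at or under the level of 3 UMIs that a count of 0 allows, and the gene did not pass the filter on low counts. Without that filter the ob/ob effect was called (-4.61, adjusted p = 0.0039, edgeR), a value that rests on these few UMIs. Its highest level was 17.7 CPM, from 6 UMIs in the 82 venous EC-like cells of ob/ob-Veh iWAT 2. In iWAT the largest count was 19 UMIs in preadipocyte-like cells of ob/ob-Rosi 2, from only 3 of the 2850 cells, with 0 in ob/ob-Rosi 1. Igf2 reached at most 2 UMIs in any class and library.

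Of 40 other imprinted genes listed for comparison, 38 were found. Over the eWAT classes 3 of 83 pairs were called for the ob/ob effect (3.61%), all higher, and 2 of 83 for the Rosi effect (2.41%), both lower. In iWAT 3 of 86 pairs were called for either effect (3.49%), and between depots 10 of 83 (12%). The median change of the list lay between -0.01 and 0.19 over the eWAT classes for the ob/ob effect, beside -0.01 to 0.01 for all genes of a class. The median of the members tested was -0.95 in progenitor-like, -0.26 in preadipocyte-like, -0.13 in mesothelial-like, 0.07 in Fmo2 stromal-like and 0.09 in blood EC-like cells.

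Of the genes called from this list, Gatm, which makes the precursor of creatine, was at 8.04 and 4.20 CPM in eWAT preadipocyte-like cells of WT-Veh, 70.6 and 63.3 CPM in ob/ob-Veh and 8.62 and 2.31 CPM in ob/ob-Rosi. The ob/ob-Veh pair stood far above the rest (ob/ob effect 3.33, SE 0.52, adjusted p = 0.00338, and Rosi effect -3.57, SE 0.52, adjusted p = 0.00223, edgeR).

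Nnat, a small membrane protein, fell in iWAT preadipocyte-like cells of ob/ob-Veh, as Peg3 did, from 165 and 216 CPM in WT-Veh to 0 and 2.99 CPM in ob/ob-Veh, with 5.33 and 19.6 CPM in ob/ob-Rosi. Both ob/ob groups lay below WT-Veh (ob/ob effect -6.56, SE 0.77, adjusted p = 0.0068, with 0 UMIs in 1 of the ob/ob-Veh libraries, and ob/ob-Rosi against WT-Veh -3.96, SE 0.56, adjusted p = 0.0358). Adipocyte RNA in these sums was also highest in WT-Veh, at 351 and 338 CPM in WT-Veh against 64.9 to 135 CPM in the 4 ob/ob libraries. In eWAT blood EC-like cells it was counted 0 times in both WT-Veh libraries, 30 and 45 times in ob/ob-Veh and 2 and 1 times in ob/ob-Rosi, and was called in both effects. The adipocyte RNA given above for these endothelial sums was also highest in ob/ob-Veh, and its part in either Nnat result was not tested. Begain, next to Dlk1 and Meg3 on chromosome 12, was lower in iWAT than in eWAT progenitor-like cells by -4.10 (SE 0.46, adjusted p = 1.57e-05, edgeR), and Dio3, from the other end of the same domain, was lower in iWAT preadipocyte-like cells by -3.45 (SE 0.58, adjusted p = 0.00215). Nnat (4.67), Zim1 (2.22) and Peg10 (2.03) were higher in iWAT preadipocyte-like cells, and Gatm (-2.07) and Rasgrf1 (-2.57) were, like Dio3, lower there.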

How the data were processed

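SVF cells of eWAT and iWAT from 12 libraries (10x Genomics 3′ v3.1, 1 mouse per library and depot) were analysed. The authors used Cell Ranger 3.0.2 with the mm10 genome (and bcl2fastq 2.19.1.403, per the submitters' processing notes) and deposited raw UMI counts per gene and barcode, without normalization or pooling. In the iWAT matrices cells above 22000 UMIs or with 25% mitochondrial UMIs had already been removed. Whether mice share a number between depots is not given in the sources used here.

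Cells were kept if they held 700 to 22000 UMIs from 200 to 6000 genes, under 25% of them mitochondrial, which left 57613 eWAT and 68482 iWAT cells. Each depot was clustered without integration (2000 variable genes, 25 components, 20 neighbours, Leiden at resolution 1, scanpy 1.11.5), and stromal and endothelial cells were clustered again with 15 components. Clusters were named from marker lists, with at least 3 markers each in 20% of cells. They were left unnamed when markers of another lineage were high or when depth was low without markers of their own. Stromal and endothelial subclusters under 50 cells were also left unnamed. So were stromal ones whose best name led the next by under 0.2 on the log2 scale. Stromal clusters without a finer name, such as eWAT clusters 2 and 3, could still count as APC-like. No doublets were removed in the main tests, and leaving out those called by Scrublet was 1 of the alternatives. Where its automatic threshold marked under 0.5% of cells the expected rate was used.

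UMIs were summed per library and class with at least 20 cells, and 7 classes were planned, of which mural-like and lymphatic EC-like cells gave no testable contrast. Sums were fitted over all genes with edgeR 4.0.16 in R 4.3.3 (TMM, filterByExpr, quasi-likelihood F-test) without a replicate block, leaving 3 residual degrees of freedom within a depot and 6 between depots, and changes of 1.1-fold or more were called at a p of 0.05 or less after Benjamini-Hochberg adjustment. SE is the log2 change divided by the root of F. CPM values use the class total without TMM. Intervals and floors (3 UMIs) cover counting error only. The p-values rest on an estimate of the spread between mice that all groups of a fit share and that is moderated over genes. They do not measure the spread of the compared groups alone, which have 2 mice each. The tests were tested on simulated counts for iWAT progenitor-like and blood EC-like cells and eWAT preadipocyte-like cells. There the share of false calls was above the threshold in each class and largest in iWAT progenitor-like cells, and most of the smaller changes put in were not called. DESeq2 1.42.0, other normalizations and filters, thinning to 700 UMIs, single assignment of cells, a minimum of 50 cells, a replicate block and each library left out in turn were the alternatives. A further alternative dropped the minimum fold, under which no call of the main test can be lost. Leaving out the filter does not change the counts of a gene that passes it, only the genes fitted with it. The depth window and the summed APC-like class were chosen after seeing the data.

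The genes named are the 9 members, the 3 genes most like Meg3 and Mest over class sums at 10 CPM or more, and called genes of the list of other imprinted genes. The members, lists and tests were chosen with earlier results of these data known. Positions are from GENCODE vM21 (GRCm38), promoters and microRNAs from RefSeq. No promoter window for H19 or Cdkn1c and no protein sequence was used here.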

Additional observations from a re-analysis of the deposited data

Results flagged for a closer look

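In 4 pairs of member and class the groups of an effect did not overlap in either depot and lay in opposite orders. The difference between depots itself was not called by edgeR. Every member, class and effect with 2 libraries per group was scanned, and the pattern was not counted over all genes. The number of such pairs therefore says nothing about the members. The Rosi effect on Meg3 in Fmo2 stromal-like cells was -1.44 lower in iWAT than in eWAT on the log2 scale (adjusted p = 0.681). The Rosi effect on Mest in preadipocyte-like cells was 1.70 higher in iWAT (adjusted p = 0.411), and that on Peg3 in blood EC-like cells 2.67 higher (adjusted p = 0.58), with 0 UMIs in 1 of the sums. The ob/ob effect on Peg3 in Fmo2 stromal-like cells was -1.79 lower in iWAT (adjusted p = 0.806), but with cells assigned singly the eWAT effect was itself negative (-1.16). The eWAT Fmo2 stromal-like sums of ob/ob-Veh held only 29 and 56 cells.

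Some cells outside the named classes held members at levels above those of WT-Veh classes. The unnamed eWAT endothelial cluster 6 held 352 CPM of Cdkn1c in WT-Veh 2, above the 241 CPM of its blood EC-like cells. Ndn was at 152 and 153 CPM in the unnamed stromal cluster 2 and at 109.7 and 101 CPM in the unnamed stromal cluster 3 of the ob/ob-Veh eWAT libraries, beside 71.4 and 89.0 CPM over all APC-like cells of WT-Veh. In the named progenitor-like and preadipocyte-like cells of the same ob/ob-Veh libraries it was at 148 to 173 CPM, so cluster 3 lay below and cluster 2 within the range of its own group. With 2 libraries per group, no test for a library standing apart from its group was run.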

How the results depend on the processing

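The number of eWAT calls of the ob/ob effect (6) stayed within 1.5 times under every other setting tried with all libraries and in the depth window, but with cells assigned singly 8 were called, of which 4 were among the 6. Mest and Cdkn1c in progenitor-like cells were lost, Meg3 and Peg3 in Fmo2 stromal-like cells were called lower, and Ndn was called higher in lymphatic EC-like (adjusted p = 0.00294) and mural-like (adjusted p = 0.0213) cells. The count for the Rosi effect in eWAT (5) went to 2 with thinned cells, 8 with the replicate block and 3 in the depth window. For ob/ob-Rosi against WT-Veh (0 in either depot) DESeq2 gave 1, no filter 2 and the block 2 in eWAT, and no filter 1 in iWAT. The ob/ob effect in iWAT (3) went to 7 with no filter and 9 with the block. The Rosi effect in iWAT (1) went to 3 with DESeq2, 2 with library size alone, 9 with no filter, 4 with cells assigned singly, 2 with at least 50 cells and 7 with the block. The depot difference (6) went to 10 with single assignment and 3 in the window. The difference of the ob/ob effect between depots (0) gave 1 with DESeq2, 3 with no filter, 1 with thinned cells and 1 with the block, and that of the Rosi effect (0) 2 with DESeq2, 4 with no filter and 3 with the block. The causes were not tested.

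With each library left out in turn the counts ranged from 2 to 7 (ob/ob effect) and 2 to 5 (Rosi effect) in eWAT, 0 to 9 and 0 to 10 in iWAT, 0 to 1 for ob/ob-Rosi against WT-Veh in either depot, 4 to 8 between depots, and 0 to 1 and 0 to 0 for the differences of the effects. No share over all pairs stands beside these counts, and leaving out a library also changes comparisons it is not part of. Summing all APC-like cells turned the sign of the Rosi effect on Mest in eWAT progenitor-like cells (-0.27) and of the depot difference of Meg3 in Fmo2 stromal-like cells (0.13). The called changes kept direction and call in 167 of their other settings and lost the call in 17, with libraries left out in 133 and 29, and in the depth window and the summed APC-like class in 20 and 13, beside the 2 that turned sign. Replicate numbers are shared between groups by number alone, with correlations of same-numbered deviations of -0.0456 to 0.551, and the block, which moves the counts as given, was not used as a pairing. With the block, Cdkn1c was called in the 3 iWAT stromal classes for both effects (progenitor-like -2.19, adjusted p = 0.0112, and 1.97, adjusted p = 0.00958), the ob/ob effect on Ndn in eWAT preadipocyte-like cells (0.77, adjusted p = 0.0346), and Peg3 in Fmo2 stromal-like cells for the Rosi effect in eWAT (-1.98, adjusted p = 0.00661) and the ob/ob effect in iWAT (-1.29, adjusted p = 0.0413). It also called the Rosi effect on Meg3 (0.77) and Cdkn1c (1.18) in eWAT mesothelial-like cells, on Plagl1 in iWAT progenitor-like cells (1.06), and on Meg3 (-1.78) and Ndn (-1.71) in iWAT blood EC-like cells, the ob/ob effect on Ndn there (1.82) and on Meg3 in iWAT Fmo2 stromal-like cells (1.21), and ob/ob-Rosi against WT-Veh for Peg3 in preadipocyte-like (-1.38) and Cdkn1c in blood EC-like (-1.21) cells of eWAT. Between depots it called the difference of the Rosi effect on Cdkn1c, Meg3 and Peg3 and of the ob/ob effect on Meg3, all in preadipocyte-like cells.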
